A study of Mus musculus with 15 samples.

Results

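The enzymes of de novo purine and pyrimidine synthesis were followed in normal mouse stomach and in tumors of 4 stomach sites. The 10 genes were taken by symbol from the count table, which holds 36144 genes. They are 3 enzymes of the pyrimidine route (Cad, Dhodh and Umps) and 7 of the purine route (Ppat, Gart, Pfas, Paics, Adsl, Atic and Impdh2). All 10 passed the filter on low counts and were among the 16224 genes tested.

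The study sequenced RNA in bulk from 15 stomach samples of C57BL/6 mice, 3 of normal tissue and 3 tumors each from the antrum, the corpus, and the boundaries of the greater and of the lesser curvature of the cardia. All 15 samples, normals included, carry the same genotype label: Pou2f3-CreERT, a tamoxifen-activated Cre driven by Pou2f3, the tuft cell transcription factor, with Rb1fl/fl, Trp53fl/fl and LSL-MycT58A, a Cre-dependent Myc with a stabilizing mutation. Mice were labelled as 7 to 8 weeks old and sampled 5 weeks after tamoxifen at 50 mg/kg, so the normal tissue is that of induced mice, from a stomach region that is not stated. Replicates are biological by their labels, which do not tie them to animals, and p-values here measure only the spread between these samples. Libraries are named by site and replicate number, as antrum 1, and greater and lesser curvature stand for those boundaries of the cardia.

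Cells make nucleotides from small precursors by these routes or recover bases and nucleosides by salvage. In the pyrimidine route Cad, a fused enzyme of several activities, starts from glutamine and bicarbonate, Dhodh oxidizes dihydroorotate at the mitochondrial inner membrane, and Umps attaches the ring to ribose phosphate and yields UMP. In the purine route the ring is built on phosphoribosyl pyrophosphate: Ppat takes the committed step, Gart, Pfas, Paics, Adsl and Atic carry the ring to IMP, and Impdh2 turns IMP toward GMP. Several of these genes are textbook targets of Myc, which binds the E-box CACGTG, and demand for their products rises in dividing cells.

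The genes lie on 7 chromosomes of GRCm38 in the GENCODE M21 annotation: Cad at chr5:31054780-31078479, Dhodh at chr8:109591343-109608673, Umps at chr16:33954782-33967038, Ppat at chr5:76913249-76951578, Gart at chr16:91621186-91646952, Pfas at chr11:68985697-69008460, Paics at chr5:76951307-76967509, Adsl at chr15:80948490-80970946, Atic at chr1:71557150-71579631 and Impdh2 at chr9:108560286-108565584. Ppat and Paics are neighbours transcribed away from each other, and their 5′ ends overlap by 272 bases, 6.15% of the exonic bases of Ppat and 8.67% of those of Paics. The sources used here do not say whether counting used strand, so reads from the overlap cannot be told apart. The same holds for 1014 exonic bases (19.7%) that Gart shares with the antisense gene Gm15964. It holds too for 213 exonic bases (6.11%) that Umps shares with antisense Gm15829, and for 48 (1.56%) that Impdh2 shares with Ndufaf3.

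RefSeq promoter windows on GRCm38.p6, from 250 bases before to 50 bases after the start, were matched for 8 of the 10 genes, Dhodh and Pfas being the 2 others. The E-box CACGTG, which reads the same on both strands, was found in 3 of these 8 windows (37.5%), against 2349 of 32851 windows of all genes (7.15%). The 3 matches are shown because they hold the same letters at different places relative to the start. The motif is in capitals with the 12 bases on each side, on the plus strand, which is the coding strand of all 3 genes.
Atic, chr1:71557137-71557166: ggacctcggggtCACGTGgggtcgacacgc
Paics, chr5:76951087-76951116: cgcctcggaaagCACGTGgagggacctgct
Impdh2, chr9:108560314-108560343: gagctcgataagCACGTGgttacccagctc
The motif of Atic begins 7 bases before the RefSeq start, that of Impdh2 110 bases before it, inside an annotated Impdh2 exon, and that of Paics 203 bases before it, inside an exon of Ppat. A match is a description of these letters, and no binding was measured here.

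All 10 enzymes were higher in tumors than in normal stomach. Values are CPM, counts per 1e+06 counts of the library as scaled by TMM. Calls rest on edgeR's quasi-likelihood test, with Benjamini-Hochberg adjustment over all genes tested and 0.05 as the bound for the adjusted p. With the 4 sites averaged against normal, 10 of 10 enzymes were called higher, where 16.2% of all genes were, and 0 of 10 lower (15.7% of all genes). Their log2 fold changes ran from 0.80 for Paics to 2.06 for Pfas, with a median of 1.25 against -0.04 over all genes. For 7 of the 10, all 12 tumors lay above all 3 normals, as did 9.58% of the genes tested. Dhodh, Ppat and Paics were the 3 with overlap. In bulk tissue, more cells that express a gene and more RNA per cell cannot be told apart.

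**Figure D1:**
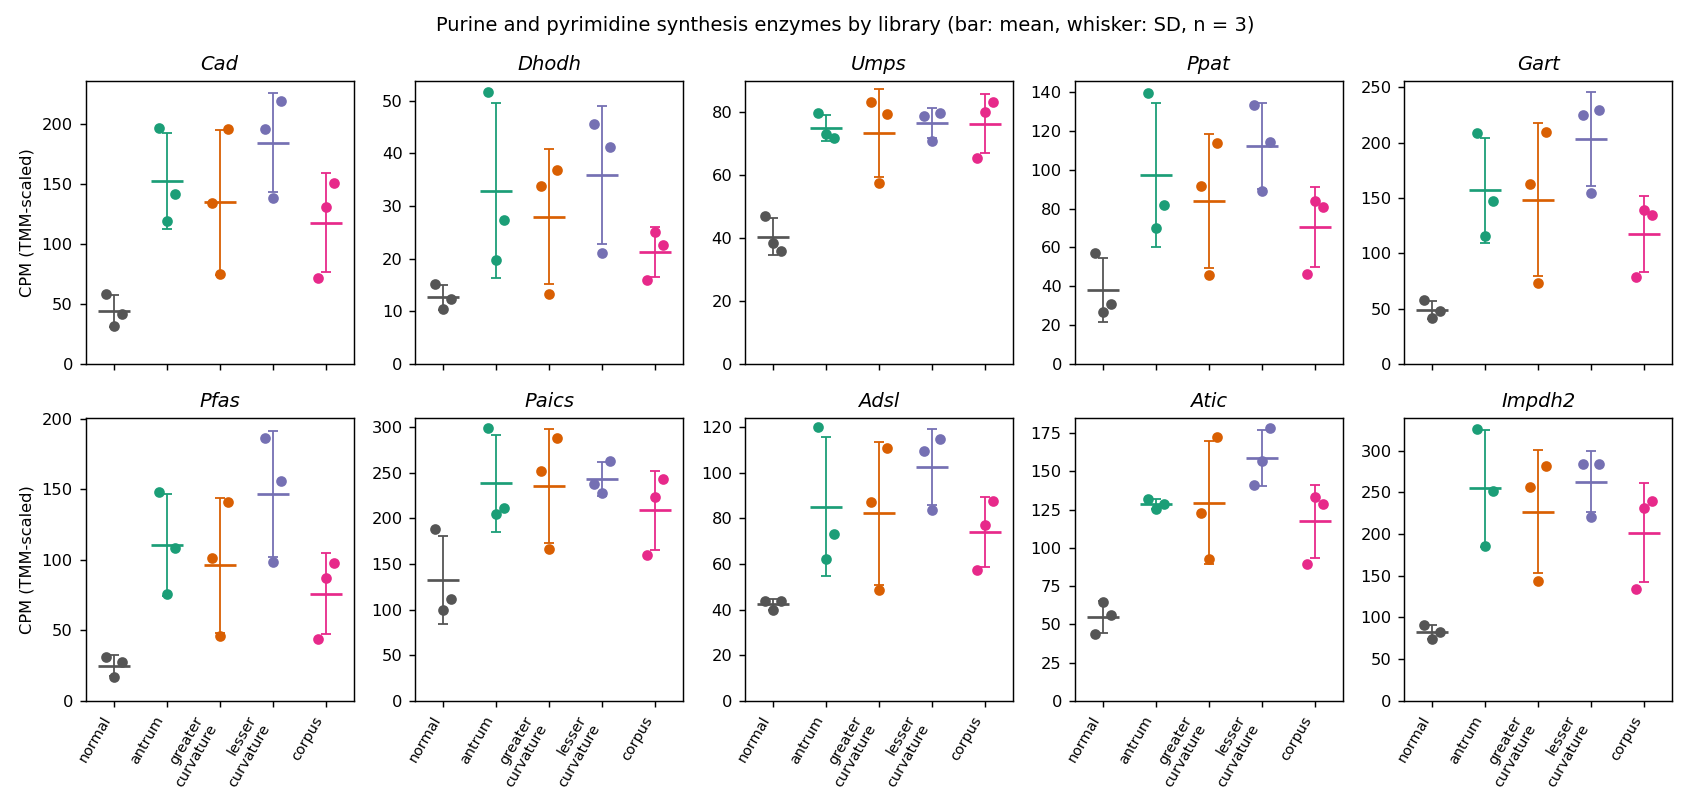
TMM-scaled CPM (linear axes from 0) of the 10 enzymes in each library, by group, with points for libraries, bars for means and whiskers for SD (n = 3). Normals have the lowest mean in every panel, and in the greater curvature and corpus groups the lowest points are greater curvature 2 and corpus 1.

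Some properties of the libraries bear on every value that follows. Totals ran from 7957165 counts in lesser curvature 2 to 21564972 in greater curvature 2, so that 1 count stands for 0.0478 to 0.112 CPM, and the smallest count of any of the 10 enzymes was 120, for Dhodh in normal 2. On the first principal component, which held 46.9% of the variance, greater curvature 2 (-84.9) and corpus 1 (-86.3) lay among the normals (-124 to -62.1). Counts over whole genes do not show whether the floxed parts of Rb1 and Trp53 were lost: Rb1 ran from 36.1 to 49.5 CPM in normals and from 23.3 to 47.2 in tumors, Trp53 from 28.1 to 32.4 and from 24.03 to 70.5. Proliferation markers were called higher in 8 of 8 genes, with summed levels of 292 to 485 CPM in normals, 1238 to 2063 in antrum, 671 to 2080.0 in greater curvature, 1479 to 2104 in lesser curvature and 886 to 1538 in corpus tumors. Smooth muscle markers were called lower in 8 of 8, with sums of 4392 to 6318 CPM in normals and 187 to 1142 in tumors, parietal cell markers in 5 of 6 and chief cell markers in 3 of 5 tested. Summed chief cell markers were 62309 to 137648 CPM in normals, 44952 in greater curvature 2, 81858 in corpus 1 and 7.42 to 20450.3 in the other 10 tumors; of that list Lipf and Pga5 were at 0 in at least 1 library. Summed parietal cell markers were 5084 to 9686 CPM in normals, 3237 in greater curvature 2, 7464 in corpus 1 and 15.1 to 2631 in the other 10 tumors. Squamous markers, called lower in 5 of 8, summed to 5772 CPM in normal 2 against 2.06 and 1.53 in the other normals, with Krt5, Krt13, Krt14, Sprr3 and Trp63 at 0 in at least 1 library. Of the other lists, pit and neck mucous cell markers were lower in 2 of 6, neuroendocrine markers higher in 1 of 8, fibroblast markers higher in 2 of 6, leukocyte markers higher in 2 of 7 tested, and pan-epithelial markers called in 0 of 6. Beside all these marker counts, 16.2% of all genes were called higher and 15.7% lower. The part of cell composition in the changes of the 10 enzymes was not tested.

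Cad, which starts the pyrimidine route, changed most of its 3 enzymes. It was measured at 57.9, 31.6 and 41.7 CPM in normals 1, 2 and 3, at 196, 119 and 142 in the antrum tumors and at 134, 74.8 and 195 in the greater curvature tumors. In the lesser curvature tumors it was at 195, 139 and 219, and in the corpus tumors at 71.3, 131 and 150.5. All 12 tumors exceeded all 3 normals, the lowest being corpus 1 and greater curvature 2. The tumor mean was 147 ± 47.3 CPM (SD, n = 12) against 43.7 ± 13.3 (SD, n = 3), a log2 fold change of 1.73 ± 0.34 (SE, edgeR adjusted p = 0.00508). Cad kept its call when any of the 15 libraries was left out.

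Umps, the last enzyme of the route, rose less, but with little spread. Its normals were at 47.02, 38.3 and 35.8 CPM, the antrum tumors at 79.5, 73.1 and 71.7 and the greater curvature tumors at 83.1, 57.4 and 79.3. The lesser curvature tumors were at 78.5, 70.8 and 79.7 and the corpus tumors at 65.5, 80.04 and 83.2. Outside greater curvature 2 and corpus 1, the other 10 tumors stayed between 70.8 and 83.2 CPM. The log2 fold change was 0.90 ± 0.14 (SE), and the adjusted p from edgeR, 0.00233, was the lowest among the 10 enzymes.

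Dhodh, the mitochondrial step, rose with more spread between the tumors. The normals were at 15.1, 10.5 and 12.2 CPM, and the tumors ran from 13.3 in greater curvature 2 through a median of 26.2 to 51.7 in antrum 1. Greater curvature 2 was below normal 1, and the other 11 tumors were above all normals. Within each site the 3 tumors differed widely: 51.7, 19.8 and 27.3 in antrum, 45.6, 21.04 and 41.3 in lesser curvature, and 15.9, 25.1 and 22.7 in corpus. Dhodh was called higher at 1.20 ± 0.38 (log2, SE, edgeR adjusted p = 0.0318), and lost the call without normal 1, normal 2, normal 3 or corpus 2, with adjusted p up to 0.122.

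Among the purine enzymes Pfas, which makes the amidine intermediate of the ring from glutamine, showed the largest change. It was at 31.00, 16.7 and 27.4 CPM in the normals, at 148, 75.98 and 108 in antrum and at 101, 45.9 and 141 in greater curvature tumors. The lesser curvature tumors reached 187, 98.5 and 156 and the corpus tumors 43.6, 86.9 and 97.5. No tumor overlapped the normals, and the lowest tumor, corpus 1, was 1.41-fold the highest normal. The mean of 107 ± 43.6 CPM (SD, n = 12) in tumors stood against 25.04 ± 7.41 (SD, n = 3), with a log2 fold change of 2.06 ± 0.40 (SE, edgeR adjusted p = 0.00497).

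Gart, a fused enzyme with 3 activities on the route, followed closely. Its normals were at 57.5, 41.00 and 48.01 CPM, and its tumors ran from 73.4 in greater curvature 2 through a median of 151 to 229.8 in lesser curvature 3. All tumors were above all normals, and the log2 fold change was 1.65 ± 0.32 (SE, edgeR adjusted p = 0.00511). Impdh2, the isozyme of IMP dehydrogenase most often described in dividing cells, was at 90.7, 73.8 and 82.9 CPM in normals. In the antrum tumors it was at 326, 186 and 252, in greater curvature at 256, 144 and 281, in lesser curvature at 284, 221 and 283 and in corpus at 134, 231 and 239.6. The lowest tumor was 1.47-fold the highest normal, the widest such gap among the 10 enzymes. Its log2 fold change was 1.51 ± 0.26 (SE, edgeR adjusted p = 0.00312).

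Atic, which closes the ring to IMP, was at 43.9, 64.7 and 55.96 CPM in normals and ran from 89.7 in corpus 1 through a median of 130.4 to 178 in lesser curvature 3. The antrum tumors were close together at 132, 126 and 128 CPM. Atic differed from most of the other enzymes in its normals: normal 1 was its lowest normal, whereas normal 1 was the highest for 8 of the 10 enzymes. It was higher by 1.27 ± 0.20 (log2, SE, edgeR adjusted p = 0.00237) with no overlap. Adsl, which acts on the route to IMP and again on the branch to AMP, had nearly equal normals at 43.6, 39.7 and 43.8 CPM. Its tumors ran from 48.7 in greater curvature 2 through a median of 85.4 to 119.9 in antrum 1. The lowest tumor was 1.11-fold the highest normal, and the log2 fold change was 1.01 ± 0.26 (SE, edgeR adjusted p = 0.0139). The call was lost without normal 2 or without normal 3, with an adjusted p of 0.06 at its highest.

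Ppat, the committed step, and its neighbour Paics had the most overlap with the normals. Ppat was at 56.9, 26.5 and 30.6 CPM in normals, at 139.8, 70.1 and 81.9 in antrum tumors and at 91.8, 45.8 and 114 in greater curvature tumors. In the lesser curvature it was at 133, 89.1 and 114 and in the corpus at 46.5, 83.9 and 80.99. Normal 1 was above both greater curvature 2 and corpus 1. Paics was at 188, 99.3 and 111 CPM in normals, at 299, 204 and 212 in antrum and at 252, 166 and 288 in greater curvature tumors. Its lesser curvature tumors were at 238, 228 and 263 and its corpus tumors at 160.0, 224 and 243. Here too normal 1 was above those 2 tumors and below the other 10. Ppat was higher by 1.24 ± 0.35 (log2, SE, edgeR adjusted p = 0.02) and Paics by 0.80 ± 0.24 (adjusted p = 0.0251). Both lost the call without normal 2 or without normal 3, with adjusted p up to 0.0947 for Ppat and 0.122 for Paics.

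The pooled calls of 6 enzymes did not depend on any one library, and those of 4 did. Without normal 2 the count of enzymes called higher was 6 (8.14% of all genes), and without normal 3 it was also 6 (6.89%). With every library 16.2% of all genes were called higher. The enzymes not called were Dhodh, Ppat, Paics and Adsl in either case. Cad, Umps, Gart, Pfas, Atic and Impdh2 were called under all 21 settings tried. Greater curvature 2 and corpus 1 were the 2 lowest tumors for all 10 enzymes. Leaving them out therefore had to raise the log2 fold changes of all 10, for example to 1.87 for Cad and 1.63 for Impdh2.

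At each site the members were compared with the same 3 normals, so that the 4 comparisons are not independent. In lesser curvature tumors 10 of 10 enzymes were called higher (18.2% of all genes), in antrum tumors 8 (9.59%), in greater curvature tumors 6 (6.50%) and in corpus tumors 3 (2.35%). The median log2 fold change over the 10 was 1.55 in lesser curvature, 1.37 in antrum, 1.19 in greater curvature and 1.01 in corpus. Umps, Atic and Impdh2 were called at all 4 sites. Dhodh (edgeR adjusted p = 0.0563, and 0.0447 with a block for the replicate number) and Paics (0.0642) were not called in antrum, and Dhodh (0.104), Ppat (0.0857), Paics (0.0789) and Adsl (0.0663) were not called in greater curvature. In corpus Cad had a log2 fold change of 1.43 ± 0.39 (SE, adjusted p = 0.0617), Pfas 1.60 ± 0.45 (0.0661, and 0.0498 with the block) and Gart 1.26 ± 0.37 (0.0748), while Dhodh stood at 0.75 ± 0.44 (0.322).

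Overlap with the normals was also counted directly. All 3 tumors lay above all 3 normals for 10 enzymes in antrum (21.9% of genes), 10 in lesser curvature (27.4%), 8 in corpus (17.6%) and 7 in greater curvature (15.2%). The overlapping enzymes were Ppat and Paics in corpus, and Dhodh, Ppat and Paics in greater curvature. The count called at a site moved with single libraries, and the share of all genes called higher moved with it. Without greater curvature 2 the count at that site rose from 6 to 10, with 15.7% of all genes called higher. It was 0 without greater curvature 1, greater curvature 3 or normal 3, where 80, 16 and 1 genes in all were called higher (0.482%, 0.0962% and 0.00601%). Without normal 1 or without normal 2 it was 1 (0.868% and 1.68% of all genes). In corpus the count was 6 without corpus 1 (4.53%) and also 6 without greater curvature 2 (5.35%). It was 0 there without corpus 2, corpus 3 or any normal, where 0 to 108 genes in all were called higher. It was 1 without greater curvature 1, lesser curvature 1, antrum 3 or lesser curvature 3 (0.404% to 0.964%). In antrum it was 3 without antrum 1 (2.01%) or without normal 2 (3.19%), and 2 without normal 3 (1.24%).

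No enzyme was shown to differ among the sites. The edgeR F test over the 4 sites called 0 of the 10 (lowest adjusted p = 0.891), with 0 of them at an unadjusted p under 0.05, and 0 of all genes (0.0% of those tested, 947 at an unadjusted p under 0.05). DESeq2 called 348 genes among the sites, none of them one of the 10. Against the mean of the other 3 sites, the log2 differences ran from 0.03 to 0.66 in lesser curvature and from -0.61 to 0.03 in corpus, with 0 of 10 called at any of the 4 sites by edgeR or DESeq2. Of all genes, edgeR called 0.00616% for lesser curvature and 0.0% for each of the other 3 in this contrast. Apart from Umps, whose 4 site values lay between 0.86 and 0.92, each enzyme had its largest log2 fold change against normal in lesser curvature and its smallest in corpus, an order that was not called by the test among sites.

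**Figure D2:**
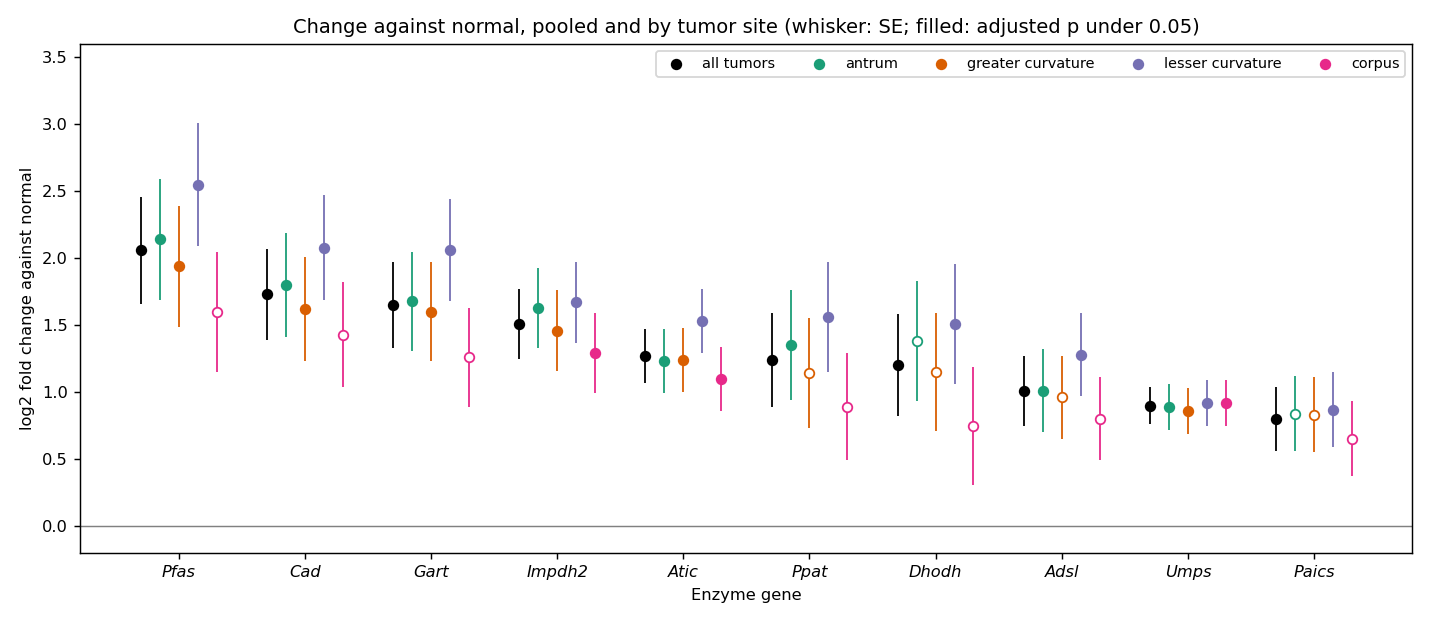
Log2 fold change against normal (y axis) of each enzyme (x axis, by pooled change), for all tumors and for each site, with whiskers of 1 SE and filled points at an adjusted p under 0.05. Every point lies above 0, and the corpus is filled only for Atic, Umps and Impdh2.

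Levels between genes were compared in TPM, transcripts per 1e+06, which is per length. Summed over the 10 enzymes, the normals held 233 ± 42.5 TPM (SD, n = 3), from 195 to 279, and the 12 tumors 849 ± 299, from 359.9 to 1267. The sums were 844 ± 246 in antrum, 802 ± 373 in greater curvature, 1121 ± 224 in lesser curvature and 629 ± 236 in corpus tumors (SD, n = 3 each). Even the lowest tumors, corpus 1 at 359.9 and greater curvature 2 at 403 TPM, were above the highest normal. The TPM table centers libraries differently from the scaled counts and moves the median of all genes by 0.43 on the log2 scale, with 5739 genes called higher and 551 lower by limma, against 2628 and 2548 by edgeR on counts. Relative to that shift the 10 enzymes were higher by 0.96 to 1.90, which was not tested. On the values without that correction limma called all 10 higher, where 37.3% of all genes were.

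**Figure D3:**
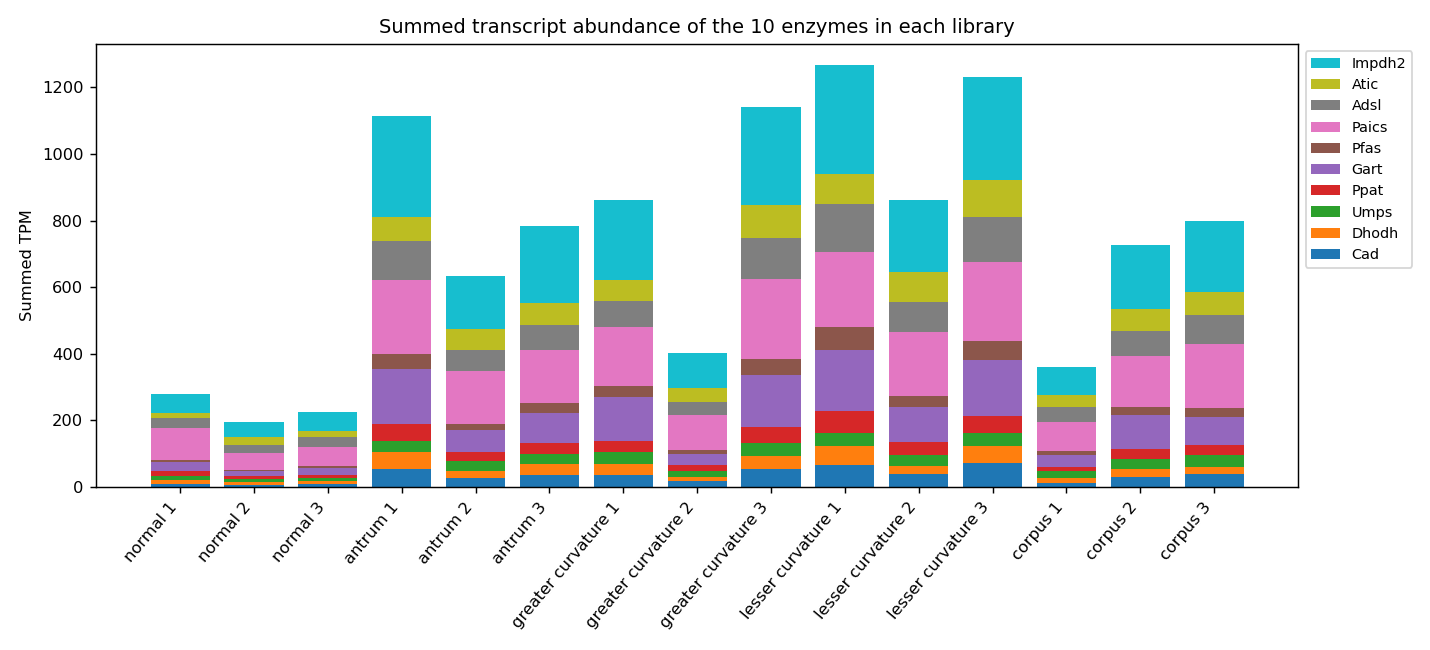
Summed TPM (y axis, from 0) of the 10 enzymes in each of the 15 libraries, stacked by enzyme. The normals reach 195 to 279 TPM and the tumors 359.9 to 1267. Impdh2 and Paics make up the widest bands of the tumor columns, with Gart next on average.

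The order of the enzymes by mean TPM differed between normal tissue and tumors. In normals Paics was the highest at 66.5 ± 23.8 TPM, above Impdh2 at 52.9 ± 6.75 in 3 of 3 libraries (SD, n = 3). In tumors Impdh2 led at 224 ± 78.9 TPM, above Paics at 179 ± 49.6 in 10 of 12 (SD, n = 12). Adsl came next in normals at 28.8 ± 1.96 TPM and Gart next in tumors at 110.1 ± 50.9, above Adsl at 89.3 ± 34.1 in 9 of 12. In normals Gart at 21.2 ± 5.81 and Atic at 19.6 ± 3.86 could not be ordered, Gart being above in 1 of 3 libraries, and Umps at 11.5 ± 1.54, Ppat at 10.3 ± 4.72, Dhodh at 8.68 ± 1.04 and Cad at 8.16 ± 1.68 each exceeded the next in 2 of 3. Pfas was the lowest in normals at 5.40 ± 2.0 TPM, below Cad in all 3. In tumors Cad at 39.8 ± 18.3 and Ppat at 36.9 ± 15.5 were each above the next enzyme in 10 of 12 libraries, whereas Pfas at 34.3 ± 17.8, Umps at 32.3 ± 6.50 and Dhodh at 31.2 ± 14.6 did not differ beyond their spread.

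Within a library, the ratio of 2 enzymes is free of the scaling between libraries. The log2 ratio of Cad to Dhodh was 1.93, 1.58 and 1.76 in normals, 1.92, 2.58 and 2.37 in antrum and 1.98, 2.48 and 2.40 in greater curvature tumors. It was 2.09, 2.71 and 2.41 in lesser curvature and 2.16, 2.37 and 2.72 in corpus tumors. All tumors except antrum 1 were above the normals, and the mean difference was 0.60 (exact two-sided permutation test over 455 splits, p = 0.0044, adjusted over 5 ratios p = 0.0147). The smallest p this test can give is 0.0022.

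The ratio of Cad to Umps was 0.30, -0.28 and 0.22 in normals and was higher in tumors by 0.82 (log2, exact permutation adjusted p = 0.0147). Corpus 1, at 0.12, was the one tumor within the range of the normals. The ratio of Umps to Dhodh did not separate the groups: its mean was 1.68 ± 0.17 in normals (SD, n = 3) and 1.45 ± 0.50 in tumors (SD, n = 12, exact permutation adjusted p = 0.488). The lowest value, 0.62, was that of antrum 1 and the highest, 2.10, that of greater curvature 2.

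Ppat and Paics, which start next to each other, rose unequally. Their log2 ratio was -1.72, -1.90 and -1.86 in normals, -0.84, -1.35 and -1.20 in lesser curvature tumors and -1.78, -1.41 and -1.58 in corpus tumors. It was above all normals in 10 of 12 tumors, with a mean difference of 0.42 (exact permutation adjusted p = 0.0385). The ratio of Impdh2 to Impdh1, the other isozyme, was 0.35, 1.99 and 1.46 in normals, while all 12 tumors lay between 1.86 and 2.33. The mean difference was 0.82 (exact permutation adjusted p = 0.0147), and normal 2, at 1.99, was among the tumors. Impdh1 itself was at 71.2, 18.5 and 29.97 CPM in normals and from 31.5 to 81.8 in tumors (log2 0.48 ± 0.38, SE, edgeR adjusted p = 0.325). It was called higher without normal 1 (edgeR adjusted p = 0.0478) and on the TPM table (limma adjusted p = 0.0325).

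These ratios rest on few normals. On the TPM table the differences were 0.44 for Cad to Dhodh (exact permutation adjusted p = 0.0513), 0.63 for Cad to Umps (0.0513) and 0.28 for Ppat to Paics (0.124). Without normal 1 the 4 called ratios each had an adjusted p of 0.0549. Without normal 2 they stood at 0.0549 to 0.137, and without normal 3 at 0.0549 to 0.124. With a normal left out there are fewer splits, so the smallest p the test can give is above 0.0022. A call lost there does not show that the ratio depends on that normal. Without normal 1 the differences were 0.68 for Cad to Dhodh, 0.93 for Cad to Umps and 0.48 for Ppat to Paics. With it they were 0.60, 0.82 and 0.42. Impdh2 to Impdh1 differed by 0.36 without normal 1, against 0.82 with it. Ppat to Paics also lost its call without antrum 1, greater curvature 3, lesser curvature 2 or lesser curvature 3 (adjusted p of 0.0515 to 0.0549).

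**Figure D4:**
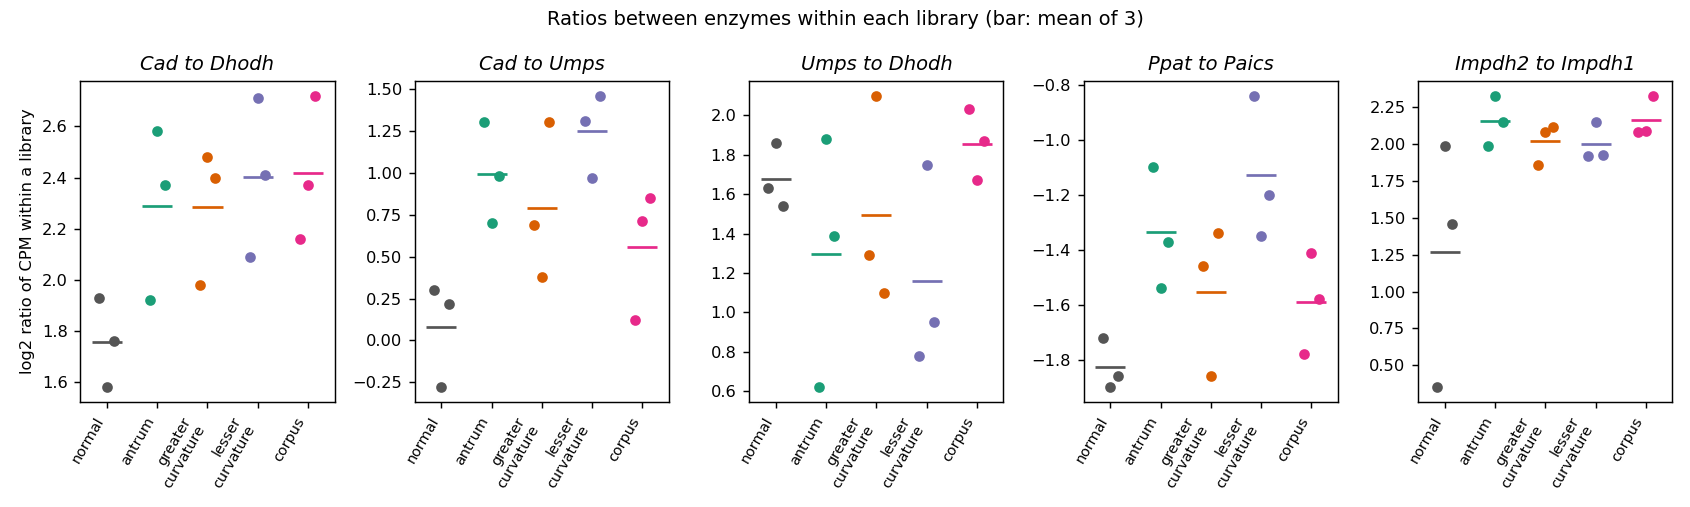
Log2 ratio of CPM between 2 enzymes within each library (y axis, separate scale per panel), by group, with points for libraries and bars for means of 3. For Cad to Dhodh and Cad to Umps 11 of 12 tumors lie above the normals, and for Umps to Dhodh the groups overlap.

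Among the 12 tumors the 10 enzymes went up and down together. The Pearson r between members over the tumors, on log2 CPM, had a median of 0.925 over 45 pairs, from 0.661 for Umps and Atic to 0.985 for Gart and Pfas. Antrum 1 was the highest tumor for 5 enzymes, lesser curvature 3 for 3, and lesser curvature 1 and corpus 3 for 1 each. These tumors share library scaling, and the 2 lowest are the libraries that lay among the normals.

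Myc, the transgene of the model, was at 98.4, 51.3 and 39.1 CPM in normals, 475, 163 and 347 in antrum and 245, 103 and 362 in greater curvature tumors. It was at 765, 179.6 and 503 in lesser curvature and 95.2, 139.7 and 231 in corpus tumors, higher in tumors by 2.13 ± 0.56 (log2, SE, edgeR adjusted p = 0.0158). That call was lost when normal 2 (0.0689) or normal 3 (0.0754) was left out. The sources used here do not say whether reads of the transgene are counted in Myc. Over the 12 tumors the enzymes tracked it to different degrees: Pfas most closely (Pearson r = 0.95, Spearman rho = 0.99), then Dhodh (0.92 and 0.92), Gart (0.91 and 0.92), Cad (0.90 and 0.92), Ppat (0.90 and 0.87), Impdh2 (0.88 and 0.95), Adsl (0.87 and 0.85), Paics (0.76 and 0.78), Atic (0.68 and 0.66) and Umps (0.61 and 0.40). All 10 values of r had an adjusted p under 0.05 over the 10 members by permutation, the highest being 0.032 for Umps and the lowest 0.0001. Spearman's rho was not called for Umps (permutation adjusted p = 0.20) and was called for the other 9. Of all genes tested, 26.7% had an r with Myc of at least 0.61, 5.41% of at least 0.89, the median of the 10, and 0.715% of at least 0.95.

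The correlation with Myc was no longer called for 3 enzymes without the libraries that stand apart. With values centered on site means r was between 0.75 and 0.93 for 9 enzymes, and was 0.54 for Atic (permutation adjusted p = 0.068). For Umps centering raised r from 0.61 to 0.75 (permutation adjusted p = 0.005). Centered values were permuted across sites without allowing for the fitted site means, so the p-values after centering may be too small. Without corpus 1 and lesser curvature 1, the 2 tumors farthest from the median of Myc, r was 0.57 for Umps (adjusted p = 0.073) and 0.64 to 0.93 for the others. Without greater curvature 2 and corpus 1, r was 0.95 for Pfas, 0.86 for Cad, Dhodh and Gart, 0.84 for Ppat, 0.81 for Impdh2 and 0.78 for Adsl. In those 10 tumors r was not called for Paics (0.52, permutation adjusted p = 0.15), Atic (0.34, 0.37) and Umps (0.20, 0.58). The 2 tumors left out were the lowest for Myc and for the enzymes, so the range was narrower. A missing call there does not show that a relation is absent.

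The genes outside the 10 with the most similar pattern were found by their mean Pearson r with the 10 members on log2 CPM. Over all 15 libraries these were Nup133 (0.960), Parp1 (0.959), Set (0.958), Srrt (0.958) and Nup85 (0.958), against a median of -0.0518 over all genes. Over the 12 tumors they included Dkc1 (0.941), Parp1 (0.939), Set (0.939) and Mcm2 (0.937), against a median of -0.0115. Nup133 and Nup85 are nuclear pore proteins, Parp1 acts at DNA breaks, Dkc1 modifies ribosomal RNA and Mcm2 is part of the replicative helicase. Members measured against the remaining 9 had 0.859 for Atic to 0.956 for Gart over the 15 libraries.

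Genes around the 2 routes were called in both directions, as were all genes (16.2% higher and 15.7% lower). Of 11 tested genes of the later steps to GMP, AMP and CTP, 4 were called higher and 2 lower, with a median log2 fold change of 0.20. Ctps, which makes CTP from UTP, was at 33.7 ± 6.85 CPM in normals (SD, n = 3) and 107 ± 38.9 in tumors (SD, n = 12), a log2 fold change of 1.63 ± 0.36 (SE, edgeR adjusted p = 0.00782). Gmps, which follows Impdh2 on the way to GMP, rose by 0.78 ± 0.23 (0.0269) and Nme1 by 1.20 ± 0.33 (0.0196). Adssl1, on the branch to AMP, was lower by a log2 change of -1.59 ± 0.42 (0.0154) and Cmpk1, a UMP and CMP kinase, by -1.10 ± 0.34 (0.0296). Adss, also on the branch to AMP, was not called (0.20 ± 0.15, 0.282). Its means were 90.5 CPM in normals and 104 in tumors, against 10.7 and 3.71 for Adssl1. Gmps, Nme1, Adssl1 and Cmpk1 each lost its call without at least 1 of the normals. On the TPM table Adssl1 and Cmpk1 were not called either (limma adjusted p = 0.103 and 0.158). Of the 4 genes that supply phosphoribosyl pyrophosphate, Prps1 was higher (1.52 ± 0.43, 0.0214; 0.0959 without normal 2 and 0.0866 without normal 3) and the other 3 stood between -0.15 and 0.34.

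Folate enzymes give formyl groups to Gart and Atic and the methyl group of thymidylate. Of 9 tested, 5 were called higher and 2 lower, where 16.2% and 15.7% of all genes were. Shmt1 (log2 1.44 ± 0.27, SE, edgeR adjusted p = 0.00453), Mthfd1 (0.82 ± 0.19, 0.00983), Shmt2 (1.93 ± 0.46, 0.0105) and Mthfd1l (1.71 ± 0.49, 0.0214) were among those higher. Aldh1l1, which oxidizes the formyl group, went from 94.2 ± 30.3 CPM in normals (SD, n = 3) to 25.05 ± 16.9 in tumors (SD, n = 12), a log2 change of -2.05 ± 0.55 (0.0166), and Aldh1l2 changed by -1.48 ± 0.48 (0.0351). The mitochondrial enzyme Mthfd2 had a value of 0.45 ± 0.30 (0.251). Shmt1 kept its call under all 21 settings. Another 5 genes lost theirs without at least 1 normal: Mthfd1 without normal 2, Shmt2 without normal 2 or 3, Aldh1l1 without normal 1 or 3, and Mthfd1l and Aldh1l2 without normal 1 or normal 2, as well as in other settings.

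Deoxynucleotide supply had the highest median of these lists, 1.68, with 7 of 9 genes called higher (16.2% of all genes) and 1 lower (15.7%). Dut, which removes dUTP, had the largest change at 2.53 ± 0.55 (log2, SE, edgeR adjusted p = 0.00765), followed by Dctd at 2.11 ± 0.32 (0.00208) and the ribonucleotide reductase subunit Rrm2 at 2.07 ± 0.41 (0.0051). Dtymk (1.69 ± 0.37, 0.00741), Rrm1 (1.57 ± 0.28, 0.00378) and Tyms (1.52 ± 0.25, 0.00268), the thymidylate synthase, were also higher. Dctpp1 was higher by 1.68 ± 0.49 (0.023) and lost its call without normal 1, without normal 2 and without normal 3, while the other 6 kept theirs under all 21 settings. Rrm2b, the p53-inducible subunit, was at 25.6 ± 4.07 CPM in normals and 16.4 ± 1.47 in tumors, a log2 change of -0.64 ± 0.13 (0.0063). On the TPM table it was at 0.02 and lost its call (limma adjusted p = 0.934). That value is -0.41 relative to the shift of 0.43 in the median gene there, a difference that was not tested.

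Salvage and breakdown enzymes were called in both directions, as were 16.2% (higher) and 15.7% (lower) of all genes. Of 13 salvage enzymes 3 were called higher, Dck (log2 1.54 ± 0.33, SE, edgeR adjusted p = 0.0069), Tk1 (1.43 ± 0.29, 0.00581) and Aprt (0.90 ± 0.23, 0.0137), and 3 lower, Tk2 (-0.66 ± 0.15, 0.00877), Uckl1 (-0.94 ± 0.31, 0.038) and Dguok (-0.48 ± 0.16, 0.0431). Hprt, the purine salvage enzyme that competes for the same phosphoribosyl pyrophosphate as Ppat, had a value of 0.11 ± 0.15 (0.591). Aprt lost its call without normal 1 or normal 2, and Tk2 without normal 1. Uckl1 was called in 11 of 21 settings and Dguok in 7 of 21. On the TPM table Tk2 was at 0.05 and lost its call too (limma adjusted p = 0.806). That value is -0.38 relative to the median gene, a difference that was not tested. Of 12 breakdown genes Ampd2 was higher (1.44 ± 0.28, 0.00478), and Xdh (-1.46 ± 0.47, 0.0331), which makes uric acid, and Ada (-2.68 ± 0.76, 0.021) were lower. Ada lost its call with the replicate block (edgeR adjusted p = 0.176), on the TPM table (limma adjusted p = 0.712) and without normal 2 (0.164), where its value was 1.13. Dguok lost its call with the block too (0.0536). Ada ran from 1.99 to 93.3 CPM in normals, and all 12 tumors lay within that range. Xdh lost its call without normal 2 (0.158) or normal 3 (0.11) and on the TPM table (limma adjusted p = 0.0701). It also lost it without lesser curvature 1, lesser curvature 3 or corpus 3 (edgeR adjusted p of 0.0504 to 0.053). Of 5 transporters Slc29a1 (1.67, adjusted p = 0.00582) and Slc29a2 (2.43, 0.0167), which carry nucleosides down their gradient, were higher, and Slc29a2 lost its call without normal 2 or normal 3.

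**Figure D5:**
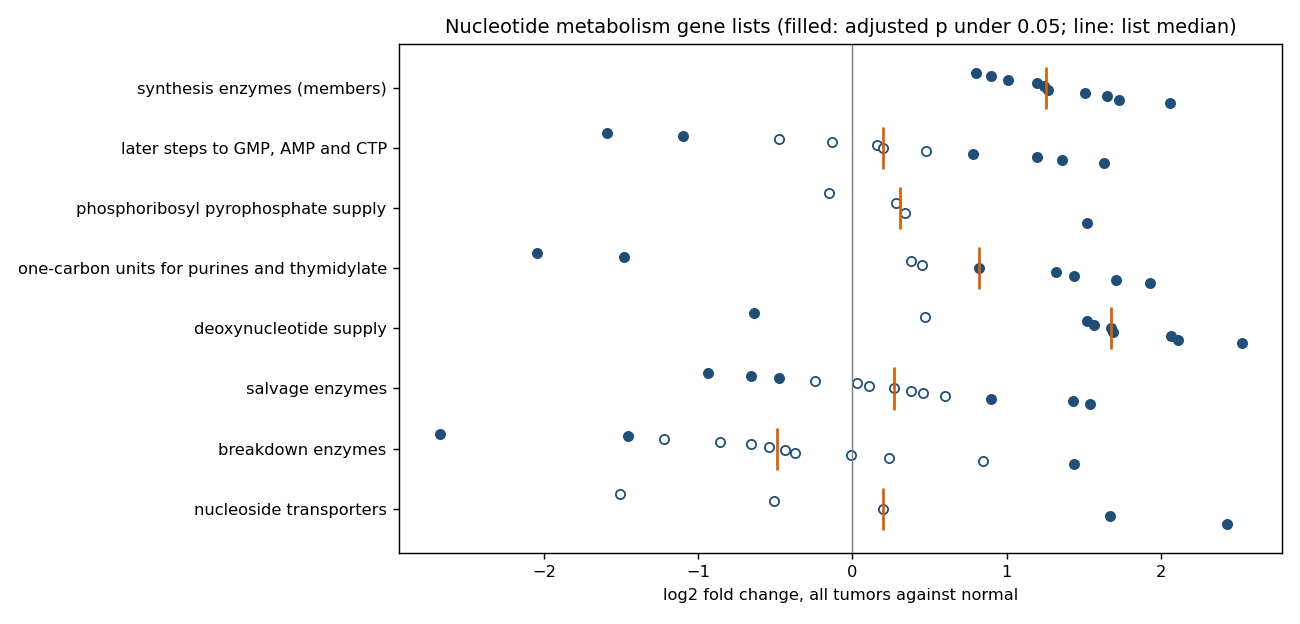
Log2 fold change of all tumors against normal (x axis) for each tested gene of the 10 enzymes and 7 related lists (y axis), filled at an adjusted p under 0.05, with a line at each list's median. All 10 enzymes lie to the right of 0, at 0.80 to 2.06, and the salvage and breakdown lists lie on both sides.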

How the data were processed

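RNA was extracted from stomach tissue and sequenced in paired-end reads, per the labels' protocols. Per the submitters' processing notes, bcl2fastq 2.19, kallisto 0.44.0, sleuth, DESeq2 and GRCm38.p6 were used, with no role or order given. The authors deposited whole-number estimated counts per gene. A second deposited table carries FPKM in its name, but its columns each sum to 1e+06, so its values were read as TPM.

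Groups and replicate numbers came from the labels. Counts were fitted in edgeR 4.0.16 (R 4.3.3) with filterByExpr at a minimum count of 10, TMM scaling and a robust quasi-likelihood fit of all 15 libraries by group. The pooled contrast is the mean of the 4 sites minus normal. Log2 CPM used a prior count of 2. Ratios were tested by exact permutation over libraries and correlations with 1e+05 permutations (Python 3.11.15). Of these steps, only the edgeR fit of the pooled contrast was tested on simulated data.

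Alternatives were DESeq2's size factors, its own test (version 1.42.0), no filter, a replicate block, a fit restricted to the groups compared, limma 3.58.1 on log2 of TPM plus 1 (genes at a TPM of 1 in 3 samples), each library left out in turn, and greater curvature 2 and corpus 1 left out together. Counts of the related lists under these settings were added after the data were seen. Sequences are from RefSeq. Genes were named by a rule: the 10 members, Myc, Impdh1, up to 4 genes of each related list with the smallest p, and the 5 genes most like the members over 15 libraries and over 12 tumors; other genes named were picked after their values were seen. Some genes that the rule names are not reported here. The members and lists were chosen with earlier results of these data known.

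Replicate numbers recur in all groups. Deviations from group means of same-numbered libraries had a median correlation of 0.168 over 30 pairs (from -0.566 to 0.693), with 17 over 0.1. Differently numbered libraries had a median of -0.0653 over 60 pairs, with 20 over 0.1. Since not every same-numbered pair was over 0.1 and the labels tie the numbers to no animal or day, the numbers were not taken to pair the samples.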

Additional observations from a re-analysis of the deposited data

How the results depend on the processing

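The directions of the 10 enzymes against normal held under every setting tried, in the pooled comparison and at each site, but calls at single sites did not. The count of enzymes called higher in all tumors was 6 to 10 with libraries left out in turn (6.89% to 20.5% of all genes). In antrum it was 2 to 10 (1.24% to 13.1%), in greater curvature 0 to 10 (0.00601% to 15.7%), in lesser curvature 7 to 10 (8.54% to 20.4%) and in corpus 0 to 6 (0.0% to 5.35%). In a fit of the compared groups only, from fewer samples, it was 0 in greater curvature (0.0267%), 0 in corpus (0.94%), 6 in antrum (4.67%) and 10 in lesser curvature (20.1%). DESeq2 called 6 in corpus (8.14%). Without greater curvature 2 and corpus 1 together, the lowest tumors for all 10 enzymes, the counts were 10 in greater curvature (16.8%) and 7 in corpus (9.48%). Among the sites, 0 of the 10 were called under all settings.

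A block for the replicate number left the count of members called at 10 for all tumors (17.9% of all genes called higher). Their edgeR adjusted p ran from 0.00333 for Atic to 0.0217 for Paics. The block moved no count of members by over 1.5 times. It added Dhodh in antrum and Pfas in corpus, and ended the calls of Ada and Dguok, as given above, and changed the call of no other related gene named in the pooled comparison. Pairing of the numbers was not shown, so this is a setting rather than a paired test.

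The differences in log2 ratio on the TPM table were 0.44 for Cad to Dhodh, 0.63 for Cad to Umps and 0.28 for Ppat to Paics. With libraries left out in turn they were 0.51 to 0.68 for Cad to Dhodh, 0.64 to 0.93 for Cad to Umps, 0.37 to 0.48 for Ppat to Paics and 0.36 to 1.18 for Impdh2 to Impdh1, with calls lost as given above. Of the related genes, Rrm2b (0.02) and Tk2 (0.05) changed sign and lost their calls on the TPM table. Relative to the median gene there they kept their sign (-0.41 and -0.38), which was not tested. Ada changed sign without normal 2 (-3.24 to 1.13 over the libraries left out in turn). On TPM values, 7 genes of the later steps, 3 of phosphoribosyl pyrophosphate supply, 6 salvage and 2 breakdown genes were called higher, and 0 of each of these lists lower, against 37.3% and 3.58% of all genes. Without normal 2 or normal 3, 1 gene of the later steps and 0 of phosphoribosyl pyrophosphate supply were called higher, against 8.14% and 6.89% of all genes. DESeq2 called 5 salvage genes higher, against 22.2% of all genes. The cause was not tested in any of these.

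With 3 normals, of an unstated stomach region, each normal decides several calls. All members had at least 120 counts in every library.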
